A study of Mus musculus with 194 samples.

Results

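The classical and nonclustered cadherins of the mouse are described here by how often a transposon landed in and around each of their genes in the brain. The members were all protein-coding genes of the GRCm38 build whose symbol is Cdh or Pcdh followed by a number, 35 of 21627 protein-coding genes, and no measured value was used to choose them. A locus is the gene body with 10 kb on each side, and a level is the number of insertions in the locus per 1000000 insertions of the same animal's table, written IPM. The method, calling cards, delivers a transposon and a transposase by adeno-associated virus (AAV), and each line of a table is an insertion of that transposon at a TTAA site. Without a fused factor the transposase inserts more often in open and active chromatin, and with a fused transcription factor it inserts more often near the places that factor binds. All 46 animals, in 11 groups, were injected on postnatal day 0 to 1.

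The C57bl6J group (2 animals) received viruses that need no Cre. Syn1Cre and GFAPCre (6 animals each) are named by a Cre line, Syn1Cre being in use for neurons and GFAPCre for astrocytes, and Syn1CreNeg and GFAPCreNeg (6 each) are their Cre-negative groups. The groups Syn1Cre_SP1_P28 (4 animals) and Syn1Cre_SP1_P10 (3) carry Syn1Cre and the name of SP1, a zinc-finger transcription factor that binds GC-rich promoter elements called GC boxes; P28 and P10 are read here as postnatal day 28 and 10. The SP1 construct is not described in the labels, which give no age for the other groups. Frontflip_GFAPCre and its Cre-negative group had 3 animals each with another viral design. Rbp4Cre (4 animals) is a line in use for layer 5 projection neurons, taken as whole forebrain with ribosome-bound RNA and 2 libraries per animal. All of these used self-reporting transposons (SRT), which are read from RNA, with each cortex cut into 10 pieces where cortex was taken. BrokenHeart (3 animals) used a set of 20 barcoded transposons that are read from DNA. A further table pooled 3 experiments in N2a, a mouse neuroblastoma cell line.

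Cadherins are calcium-dependent adhesion proteins of the cell surface. Classical cadherins bind a like cadherin on a neighbouring cell and hold catenins on the inner side, which link them to actin. In the brain the type II classical cadherins and the delta-protocadherins are expressed in different sets of neurons and are known for cell sorting, axon guidance and synapse formation. Delta-2 protocadherins can recruit the WAVE complex, which drives actin branching. Among the members, 5 are type I classical cadherins, 13 type II, 4 delta-1 protocadherins and 5 delta-2 protocadherins, and the remaining 8 are placed here as other cadherins (5) or other protocadherins (3).

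The 250 bases before the gene start are shown for 4 members because the results on the groups labelled SP1 turn on them. Relative to all insertions of a table, those groups had more insertions at the starts of Pcdh7 and Pcdh19 than Syn1Cre and fewer over the loci of Cdh6 and Cdh9. The letters are from RefSeq on GRCm38, 5′ to 3′ on the gene's strand, in lower case with GC boxes (GGGCGG or CCGCCC) in capitals. The windows lie at chr5:57717831-57718080 on the plus strand (Pcdh7), chrX:133688994-133689243 on the minus strand (Pcdh19), chr15:13173676-13173925 on the minus strand (Cdh6) and chr15:16728665-16728914 on the plus strand (Cdh9).
Pcdh7: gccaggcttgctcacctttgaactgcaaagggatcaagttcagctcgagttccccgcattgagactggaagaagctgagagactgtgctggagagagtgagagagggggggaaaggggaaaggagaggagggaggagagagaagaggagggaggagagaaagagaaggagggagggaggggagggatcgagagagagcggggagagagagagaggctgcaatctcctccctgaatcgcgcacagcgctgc
Pcdh19: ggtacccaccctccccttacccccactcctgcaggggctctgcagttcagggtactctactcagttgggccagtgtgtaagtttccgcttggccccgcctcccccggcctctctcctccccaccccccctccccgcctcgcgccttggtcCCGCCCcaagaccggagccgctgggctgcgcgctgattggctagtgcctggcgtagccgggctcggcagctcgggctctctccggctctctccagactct
Cdh6: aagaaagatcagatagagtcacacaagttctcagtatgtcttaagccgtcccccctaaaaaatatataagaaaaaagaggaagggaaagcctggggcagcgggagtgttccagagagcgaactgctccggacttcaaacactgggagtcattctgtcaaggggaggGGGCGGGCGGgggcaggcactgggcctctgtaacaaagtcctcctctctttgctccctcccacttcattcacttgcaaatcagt
Cdh9: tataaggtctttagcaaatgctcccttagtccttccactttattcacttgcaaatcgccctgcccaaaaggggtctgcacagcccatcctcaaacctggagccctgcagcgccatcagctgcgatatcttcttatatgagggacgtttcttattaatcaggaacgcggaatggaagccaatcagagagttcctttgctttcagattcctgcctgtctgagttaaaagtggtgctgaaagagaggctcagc
The Pcdh7 and Cdh9 windows held 0 GC boxes, the Pcdh19 window 1 and the Cdh6 window 2, the last as overlapping matches. The Pcdh19 window was 69.2% G and C with 16 CpG sites, against 58.4% and 7 in Pcdh7, 51.2% and 6 in Cdh6 and 48.0% and 6 in Cdh9. RefSeq start windows were given for 22 of the 35 members, 25 windows in all. Of these 25, 9 (36.0%) held a GC box on either strand, against 43.0% of all 21044 promoter windows of the same length, and 10 (40.0%) held a TTAA, against 45.4%. These matches describe letters only and are no measure of binding.

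Depth set what could be read. Tables held from 2341 insertions (a Frontflip_GFAPCreNeg animal) to 2186743 (a C57bl6J animal), with 443158 to 1364948 in Syn1Cre, 97519 to 556145 in Syn1CreNeg, 600443 to 1505413 in GFAPCre, 208057 to 597230 in GFAPCreNeg, 108965 to 577609 in SP1 at P28 and 86842 to 95331 in SP1 at P10. Rbp4Cre had 24408 to 57014 and BrokenHeart 42511 to 98197. The summed level of 9 astrocyte markers was 179 to 533 IPM in Rbp4Cre, 596 to 1986 in Syn1Cre, 2066 to 2726 in Syn1CreNeg, 798 to 1655 in GFAPCre and 1450.4 to 3009 in GFAPCreNeg. In Syn1Cre, animal 5 stood apart at 1986 against a group median of 748, and in GFAPCreNeg animal 6 at 3009 against 1643. No sequencing pool held Syn1Cre animals together with GFAPCre, Syn1CreNeg, SP1 or Rbp4Cre animals, and in those comparisons the pool cannot be told apart from the group. The labels do not say whether animals of a group shared a litter.

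In Syn1Cre animals the members took 0.964% ± 0.0648 of all insertions (SD, n = 6). The share was 0.937% in C57bl6J (n = 2), 1.00% in GFAPCre and 0.902% in Syn1CreNeg (n = 6 each), 0.591% ± 0.0453 in SP1 at P28 (n = 4), 0.483% ± 0.0137 in SP1 at P10 (n = 3) and 0.180% in the single N2a table. Per 100 kb of locus, the median member in Syn1Cre had 61.4 IPM against 31.6 for all protein-coding genes, and 26 of 35 members lay above that all-gene median. In C57bl6J 27 members did and in N2a 11. In N2a the median member had 8.14 per 100 kb against 32.6 for all genes.

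The densest member in Syn1Cre was Pcdh10, a delta-2 protocadherin that recruits the WAVE complex, at 525 IPM per 100 kb. Cdh10, a type II cadherin, followed at 231, then Pcdh17 at 227, Pcdh20 at 227, Cdh6 at 201, Pcdh7 at 197, Cdh2 (N-cadherin, of neural junctions and synapses) at 188, Pcdh9 at 166 and Cdh9 at 165. At the other end were members known from epithelia and other tissues. Cdh1 (E-cadherin) had 6.62, Cdh3 (P-cadherin) 7.23, Cdh23 (a hair-cell tip link protein) 8.56, Cdh17 (liver-intestine cadherin) 9.89 and Cdh5 (VE-cadherin of blood vessels) 15.1. The same 5 were low in C57bl6J, between 7.95 and 18.1. Pcdh15, the tip link partner of Cdh23, has the longest gene (1553.6 kb) and stood at 52.1 per 100 kb in Syn1Cre, with its insertions spread over the locus. Its busiest 10 kb held 4.54% of them. No member loci overlapped each other, but some hold other coding genes, such as Acot10 in Cdh12, Psap in Cdh23 and Rnf14 in Pcdh12, and an insertion there counts for both.

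**Figure D1:**
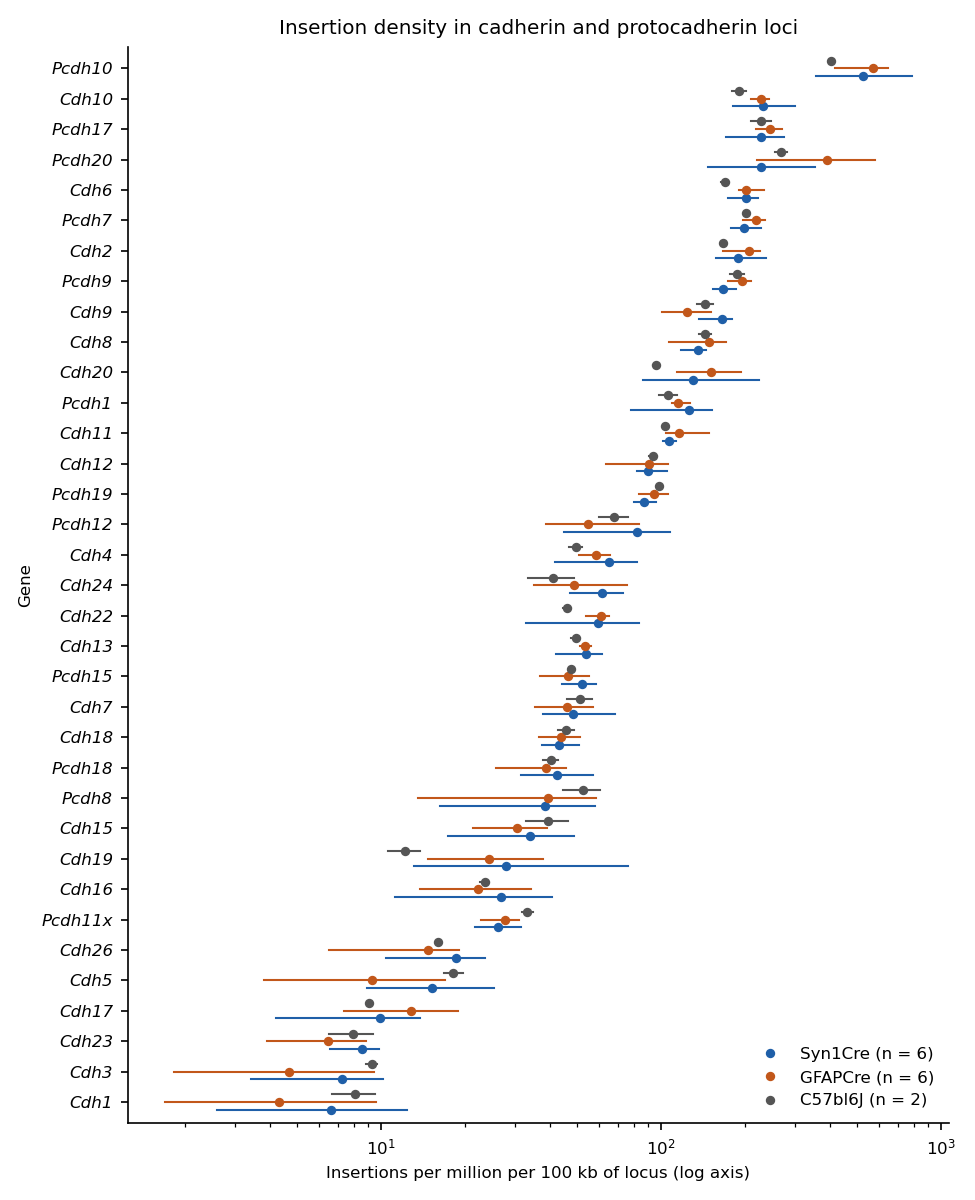
IPM per 100 kb of locus (log axis) for the 35 members, ordered by their mean in Syn1Cre, in Syn1Cre (n = 6), GFAPCre (n = 6) and C57bl6J (n = 2). Points are group means and lines run from the lowest to the highest animal; Pcdh10 is the densest member and Cdh1, Cdh3, Cdh17 and Cdh23 lie lowest in Syn1Cre.

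In several members a large share of the insertions fell in a single stretch of 10 kb, described here for Syn1Cre. The busiest 10 kb of Pcdh10 (chr3:45378398-45388397) held 42.4% of its Syn1Cre insertions. For Cdh9 the 10 kb from the gene start (chr15:16728550-16738549) held 50.8%, for Pcdh20 the 10 kb that hold its gene body (chr14:88464743-88474742) 63.8%, and for Cdh20 the 10 kb from its lower end (chr1:104768340-104778339) 39.6%. The 10 kb at the upper end of Cdh19 (chr1:110968002-110978001) held 69.7%. In Pcdh19 the 10 kb around its start (chrX:133682860-133692859) held 51.5%, and in Pcdh7 the first 10 kb (chr5:57716145-57726144) held 7.25%.

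Syn1Cre was set against Syn1CreNeg to show where insertions depended on Cre in this line. Cdh9, known for specifying hippocampal mossy fibre synapses, and Pcdh15 were higher with Cre, and Pcdh20, Cdh20 and Cdh19 were lower. Of 25 members tested, 10 passed the threshold, 5 higher and 5 lower, against 31.0% of all 8610 loci tested, 13.5% higher and 17.5% lower (edgeR's quasi-likelihood test, Benjamini-Hochberg adjusted p under 0.05). The median log2 fold change was 0.15 for members and 0.015 for all loci. Among 11 type II cadherins tested, 3 rose and 3 fell. The 10 members with too few insertions to be tested were Cdh1, Cdh3, Cdh5, Cdh15, Cdh16, Cdh17, Cdh24, Cdh26, Pcdh8 and Pcdh18.

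At Cdh9 the Syn1Cre animals had 203, 248 and 267 IPM (lowest, median, highest) and the Syn1CreNeg animals 46.5, 105 and 126. Every Syn1Cre animal lay above every Syn1CreNeg animal, with means of 245 ± 23.4 and 98.2 ± 28.1 (SD, n = 6 each). This is a log2 fold change of 1.23 (SE 0.15, edgeR adjusted p = 1.94e-06). The busiest 10 kb, at the gene start, held 50.8% of the Syn1Cre and 49.7% of the Syn1CreNeg insertions of this locus. At Pcdh20, a protocadherin with a short gene, Syn1Cre animals had 39.2, 56.9 and 94.8 and Syn1CreNeg animals 113, 147 and 233. Again the groups did not overlap, here with Syn1Cre below (log2 fold change -1.43, SE 0.19, adjusted p = 8.63e-06). At Pcdh15 the values were 698, 838 and 924 against 307, 395 and 512. All Syn1Cre animals were the higher ones (0.98, SE 0.13, adjusted p = 9.48e-06).

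Cdh12 and Cdh18, neighbouring type II genes on chromosome 15, were also higher in Syn1Cre. Their means were 1049 ± 95.3 against 677 ± 125 (log2 fold change 0.61, SE 0.12, adjusted p = 4.68e-04) and 410.0 ± 49.5 against 257 ± 43.6 (0.65, SE 0.13, adjusted p = 5.06e-04), with no overlap in either. Cdh4 (R-cadherin, type I) had 0.58 (SE 0.16, adjusted p = 0.00537). Cdh20 was lower, 322 ± 122 against 658 ± 89.6 (-1.07, SE 0.18, adjusted p = 7.57e-05), and so was Cdh19, known from Schwann cells and other glia, 30.7 ± 26.4 against 91.1 ± 39.2 (-1.72, SE 0.31, adjusted p = 1.62e-04). In both of these Syn1Cre animal 5, the animal with the high astrocyte markers, was the highest of its group at 553 and 83.5 and lay within the range of Syn1CreNeg. Cdh2 (-0.56, SE 0.13, adjusted p = 0.00157) and Cdh10 (-0.48, SE 0.14, adjusted p = 0.00834) were lower by smaller amounts. Of the members with many insertions, Pcdh9 (0.11, adjusted p = 0.437), Pcdh7 (-0.10, adjusted p = 0.533), Cdh13 (0.10, adjusted p = 0.583) and Cdh8 (0.23, adjusted p = 0.183) did not pass.

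Cell type markers moved between the same groups. All 7 astrocyte markers tested were lower in Syn1Cre, with a median log2 fold change of -1.37, and 6 of 9 neuron markers tested were higher, with a median of 0.82. Of 5 oligodendrocyte lineage markers 2 were lower, of 2 microglia markers 1 was lower, and the 1 endothelial marker tested was higher. Their part in the members' differences was not tested, and in a bulk sample more cells of a type and more insertions per cell cannot be told apart. The tables have an earlier and a later label layout, animals 1 to 3 and animals 4 to 6. Within them Cdh9 differed by 1.44 and 1.25, Pcdh20 by -1.79 and -1.10, Pcdh15 by 1.02 and 1.04, Cdh20 by -1.34 and -0.79 and Cdh19 by -2.43 and -1.25 (log2). Cdh4 and Cdh10 did not pass among animals 4 to 6, nor Cdh18 among animals 1 to 3. Without Syn1Cre animal 5, 14 members passed, and the share of all loci called in that fit is not given here.

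**Figure D2:**
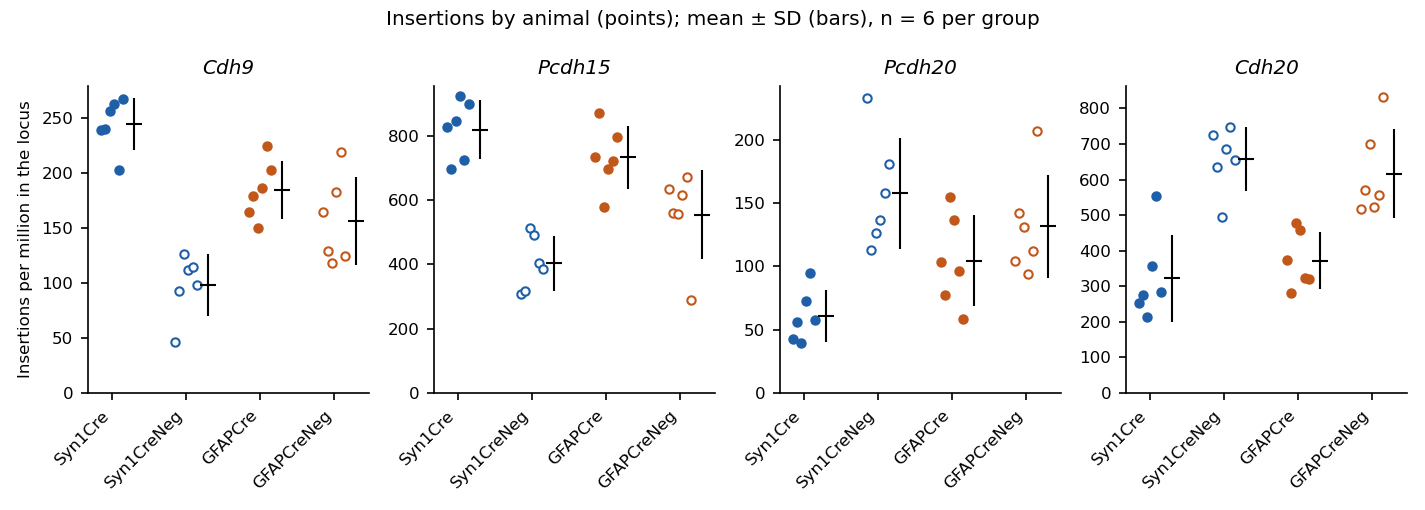
IPM in each animal of Syn1Cre, Syn1CreNeg, GFAPCre and GFAPCreNeg (6 points each) at Cdh9, Pcdh15, Pcdh20 and Cdh20, with the group mean and SD. At Cdh9 the Syn1Cre animals (203 to 267) all lie above Syn1CreNeg (46.5 to 126), and at Pcdh20 (39.2 to 94.8) all lie below it (113 to 233).

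The same question in the GFAPCre line gave smaller differences. Cdh20, Cdh10, Cdh19 and Cdh2 were lower with Cre and Pcdh15 and Cdh18 higher, so 6 of 25 members tested passed, against 8.11% of all 9201 loci (2.23% higher and 5.88% lower). The same 10 members had too few insertions to be tested. The medians were 0.08 for members and 0.023 for all loci. At Cdh20, GFAPCre animals had 281, 347 and 478 IPM and GFAPCreNeg animals 517, 564 and 832 (lowest, median, highest). No GFAPCre animal reached the lowest GFAPCreNeg animal (log2 fold change -0.71, SE 0.13, edgeR adjusted p = 9.9e-04). At Cdh10 the values were 457, 493 and 526 against 598, 687 and 856. The groups did not overlap (-0.48, SE 0.095, adjusted p = 0.00162). At Cdh19, with 16.1, 24.0 and 41.6 against 37.1, 56.1 and 86.5, the ranges met (-1.06, SE 0.22, adjusted p = 0.00297).

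Cdh2 had 496 ± 53.6 in GFAPCre and 683 ± 70.8 in GFAPCreNeg, with no overlap (-0.45, SE 0.099, adjusted p = 0.00445). Pcdh15 (0.39, SE 0.12, adjusted p = 0.044) and Cdh18 (0.37, SE 0.12, adjusted p = 0.0445) passed narrowly with overlapping groups. GFAPCreNeg animal 6, with the high astrocyte markers, was the highest of its group at Cdh20 (832), Cdh10 (856), Cdh19 (86.5) and Cdh2 (812) and the lowest at Pcdh15 (288) and Cdh18 (183). Without it these 4 still passed, at -0.61, -0.42, -0.97 and -0.39, and Pcdh15 (0.29, adjusted p = 0.051) and Cdh18 (0.29, adjusted p = 0.0638) did not. Pcdh9 (0.045), Cdh12 (0.14), Pcdh7 (-0.10) and Cdh13 (0.20) did not pass. Here 2 of 8 astrocyte markers tested were lower in GFAPCre (median -0.49) and 1 of 8 neuron markers was higher. Of 5 oligodendrocyte lineage markers 1 was higher and 1 lower, and 0 of 2 microglia markers and 0 of 1 endothelial marker passed. The part of these markers in the members' differences was not tested. In the animals whose sequencing pools held both groups, with pools as blocks, 0 of 26 members passed in edgeR (8 at an unadjusted p under 0.05), and 37 of all 9585 loci did. The values there were -0.72 at Cdh20 (adjusted p = 0.0957), -0.48 at Cdh10 (adjusted p = 0.146), -0.94 at Cdh19 (adjusted p = 0.156) and -0.44 at Cdh2 (adjusted p = 0.173), close in size to those over all animals. With DESeq2 the share of all calls that were higher was 13.2%, against 27.5% in edgeR.

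**Figure D3:**
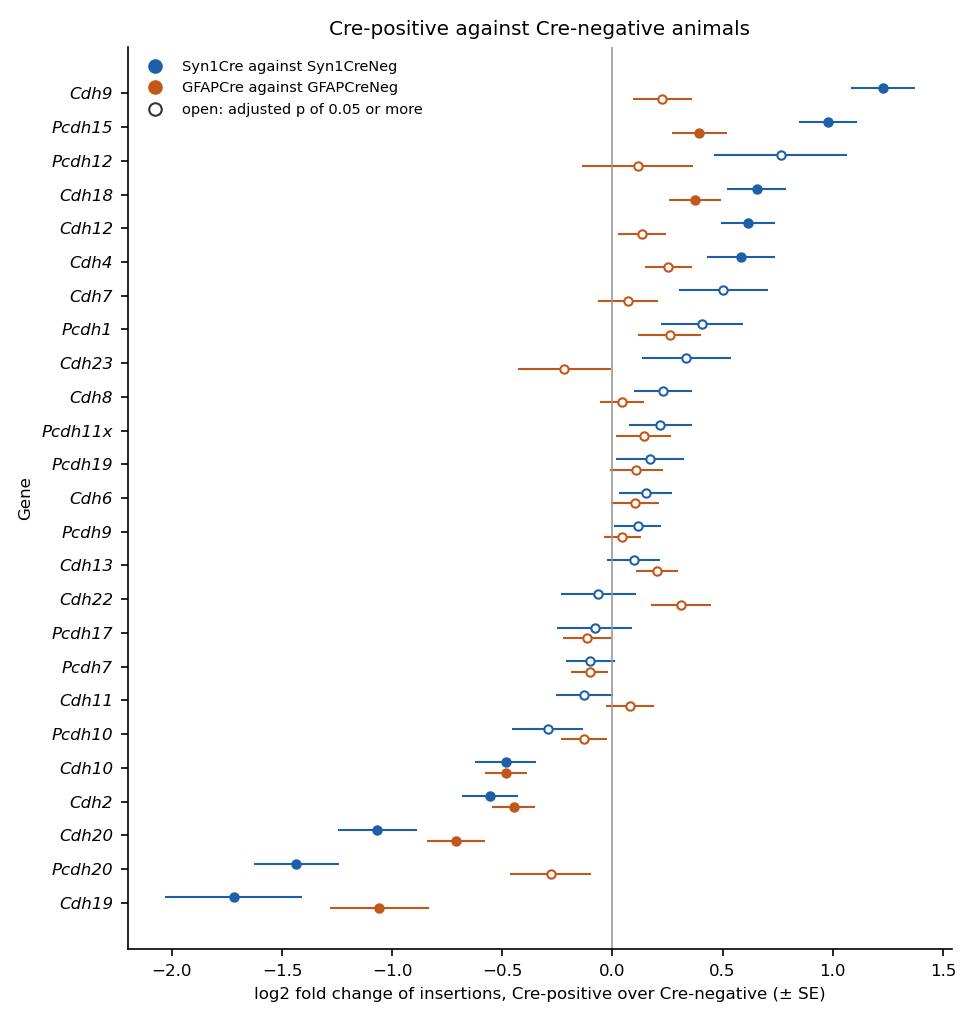
Log2 fold change with its SE for the 25 members tested in Syn1Cre over Syn1CreNeg and in GFAPCre over GFAPCreNeg. Filled points passed an adjusted p of 0.05 and open points did not; Cdh9 stands at 1.23 with Syn1Cre, and Cdh19, Cdh20, Cdh2 and Cdh10 lie below 0 in both lines.

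The difference between the Cre effects was tested in a fit of all 4 groups, added after the data were seen. Only Cdh9 passed among the members, with a Syn1 effect larger by 1.02 on the log2 scale (SE 0.205, edgeR adjusted p = 0.00517), against 0.607% of 10547 loci. Pcdh20 came next at -1.13 (SE 0.29, adjusted p = 0.0504), then Pcdh15 at 0.60 (adjusted p = 0.128) and Cdh12 at 0.51 (adjusted p = 0.154). For the members lower in both lines, Cdh20, Cdh19, Cdh2 and Cdh10, the test did not show a difference between lines.

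Set directly against GFAPCre, Syn1Cre differed at 1 of 29 members tested, against 2.15% of 11550 loci (1.19% higher and 0.961% lower). Pcdh20 had 39.2, 56.9 and 94.8 IPM in Syn1Cre and 58.7, 99.7 and 155 in GFAPCre (log2 fold change -0.85, SE 0.21, edgeR adjusted p = 0.0293). The ranges overlapped. Pcdh9 (-0.27), Cdh12 (-0.06), Pcdh7 (-0.19) and Pcdh15 (0.11) did not pass. The Pcdh20 call was lost when any of GFAPCre animals 1, 3 and 4 or Syn1Cre animals 1, 2, 3 and 6 was left out. Without Syn1Cre animal 5 there were 3 calls, with Pcdh20 at -0.95 (adjusted p = 0.00131), and with Syn1Cre animals 1 to 3 alone there were 10, 1 higher and 9 lower. The share of all loci called in these fits is not given here, so the counts are not read as a result about the members. Neuron markers were higher in Syn1Cre at 5 of 11 loci tested, and 0 of 8 astrocyte markers passed (3 at an unadjusted p under 0.05, 0 with DESeq2). Of 2 microglia markers 1 was lower, and 0 of 6 oligodendrocyte lineage markers (3 at an unadjusted p under 0.05) and 0 of 2 endothelial markers passed. Their part in the Pcdh20 difference was not tested.

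The groups labelled SP1 had fewer IPM than Syn1Cre without SP1 at many members, among them Cdh6, Cdh12, Cdh9 and Pcdh9, and more at Pcdh1. At P28, 18 of 29 members tested were lower and 2 higher, against 51.5% of 12050 loci called (25.3% lower and 26.2% higher). The median log2 fold change was -1.05 for members and -0.058 for all loci. At P10, 17 of 30 were lower and 1 higher, against 40.8% of 12858 loci (21.2% lower and 19.6% higher), with medians of -1.04 and -0.28. These comparisons share the Syn1Cre animals, whose age the labels do not give, so age and SP1 cannot be told apart. Type II cadherins were lower at 8 of 12 tested at each age, with medians of -1.34 at P28 and -1.97 at P10. Scaled to all insertions without TMM factors, 15 of 29 members were lower and 3 higher at P28, and 14 of 30 lower and 3 higher at P10, with member medians of -0.56 and -0.48 and all-locus medians of 0.42 and 0.27. The share of all calls that were higher then went from 50.8% to 80.4% at P28 and from 48.1% to 76.1% at P10. Of all 12050 loci at P28, 1227 were then lower and 5022 higher, and of all 12858 at P10, 1147 lower and 3650 higher. Of 12 neuron markers tested, 4 were higher and 3 lower at P28 and 5 higher and 3 lower at P10. Of 9 astrocyte markers, 1 was higher at P28 and 1 lower at P10, of 6 oligodendrocyte markers 2 and 1 were lower, of 2 endothelial markers 1 was lower at each age, and of 2 microglia markers 1 was higher at each age. The summed level of 5 microglia markers was 68.9 to 83.5 IPM in Syn1Cre, 123 to 165 at P28 and 138 to 241 at P10, with no overlap. The part of these markers in the members' differences was not tested.

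Cdh6, a type II cadherin, had 94.9, 147, 152 and 133 IPM in the 4 P28 animals and 23.0, 55.7 and 62.9 in the 3 P10 animals. The P10 values rest on only 2, 5 and 6 insertions, so the size of the P10 difference is loosely fixed. Syn1Cre animals had 290.4, 342 and 372 (lowest, median, highest). Every SP1 animal lay below every Syn1Cre animal, by -1.86 at P28 (SE 0.17, edgeR adjusted p = 2.32e-09) and -3.36 at P10 (SE 0.28, adjusted p = 5.03e-10). Cdh12 had 366, 294, 322 and 529.8 at P28 and 426, 312 and 430.1 at P10, against 960.2, 1032 and 1223 in Syn1Cre. The SP1 animals again lay below all Syn1Cre animals (-1.91, SE 0.18, adjusted p = 2.59e-09 at P28 and -1.99, SE 0.18, adjusted p = 1.69e-09 at P10). Cdh9 had 81.9, 64.2, 79.0 and 119 at P28, against 203 or more in Syn1Cre (-1.86, SE 0.18, adjusted p = 6.7e-09). Pcdh9, a delta-1 protocadherin with a long gene, had 576, 602 and 472 at P10, against 1384, 1496 and 1668 (-2.003, SE 0.17, adjusted p = 4.65e-10).

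Of the other members named at P28, the type II cadherins Cdh18 (-1.72), Cdh8 (-1.46) and Cdh11 (-1.36) and the protocadherins Pcdh11x (-1.75), Pcdh15 (-1.56), Pcdh17 (-1.38), Pcdh9 (-1.33) and Pcdh7 (-1.05) were lower without overlap (log2 fold changes, all past the threshold). Cdh13, which is held in the membrane by a lipid anchor in place of a cytoplasmic tail, was lower by -1.08 with overlapping groups. At P10, Cdh18 (-2.45), Pcdh17 (-2.30), Cdh8 (-2.22), Pcdh15 (-2.05), Cdh11 (-2.03), Cdh10 (-1.95), Pcdh11x (-1.82), Pcdh7 (-1.67) and Cdh9 (-1.45) were lower without overlap. Outside the rule for named members, and chosen after their values were seen, the others past the threshold were as follows. Cdh7 (-1.32), Cdh10 (-1.13), Pcdh10 (-1.06), Pcdh12 (-0.93), Cdh4 (-0.91) and Cdh2 (-0.61) were lower at P28, and Pcdh10 (-1.62), Cdh2 (-1.19), Cdh20 (-0.87), Cdh4 (-0.87) and Cdh13 (-0.78) at P10. Scaled to all insertions, Cdh2 (-0.12), Cdh4 (-0.43) and Pcdh12 (-0.48) at P28 and Cdh4 (-0.33), Cdh20 (-0.30) and Cdh13 (-0.23) at P10 did not pass. Pcdh1, a delta-1 protocadherin, was higher at both ages, with 107 ± 33.3 at P28 and 161 ± 27.6 at P10 against 57.9 ± 12.5 in Syn1Cre (0.49, adjusted p = 0.0362, and 0.91, adjusted p = 0.00434). Cdh15 (M-cadherin, known from muscle) was higher at P28, with 38.0 ± 1.64 against 13.3 ± 4.57 (1.06, SE 0.28, adjusted p = 0.00246), on 116 insertions in both groups together. Too few Syn1Cre animals (6.77 to 19.1) reached the cutoff of the low-count filter. The Cdh15 locus was thus kept at P28 through the P28 animals (36.4 to 39.8), where it was high, and its call is a description only. Pcdh19, the X-linked delta-2 gene mutated in a form of epilepsy, did not pass at either age (-0.33 and -0.55), and its sign turned when libraries were scaled to all insertions (0.15 and 0.003). Cdh22 (0.27 and 0.22) did not pass either, but did when scaled to all insertions (0.74, adjusted p = 0.00239, and 0.77, adjusted p = 0.0447), and with Pcdh1 and Cdh15 it made up the higher members under that scaling at both ages. Pcdh20 (-0.30 and -0.86) did not pass, nor did Cdh20 at P28 (-0.18) or Cdh7 at P10 (-0.80), and Pcdh20 and Cdh20 at P28 turned to 0.18 and 0.32 under that scaling.

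**Figure D4:**
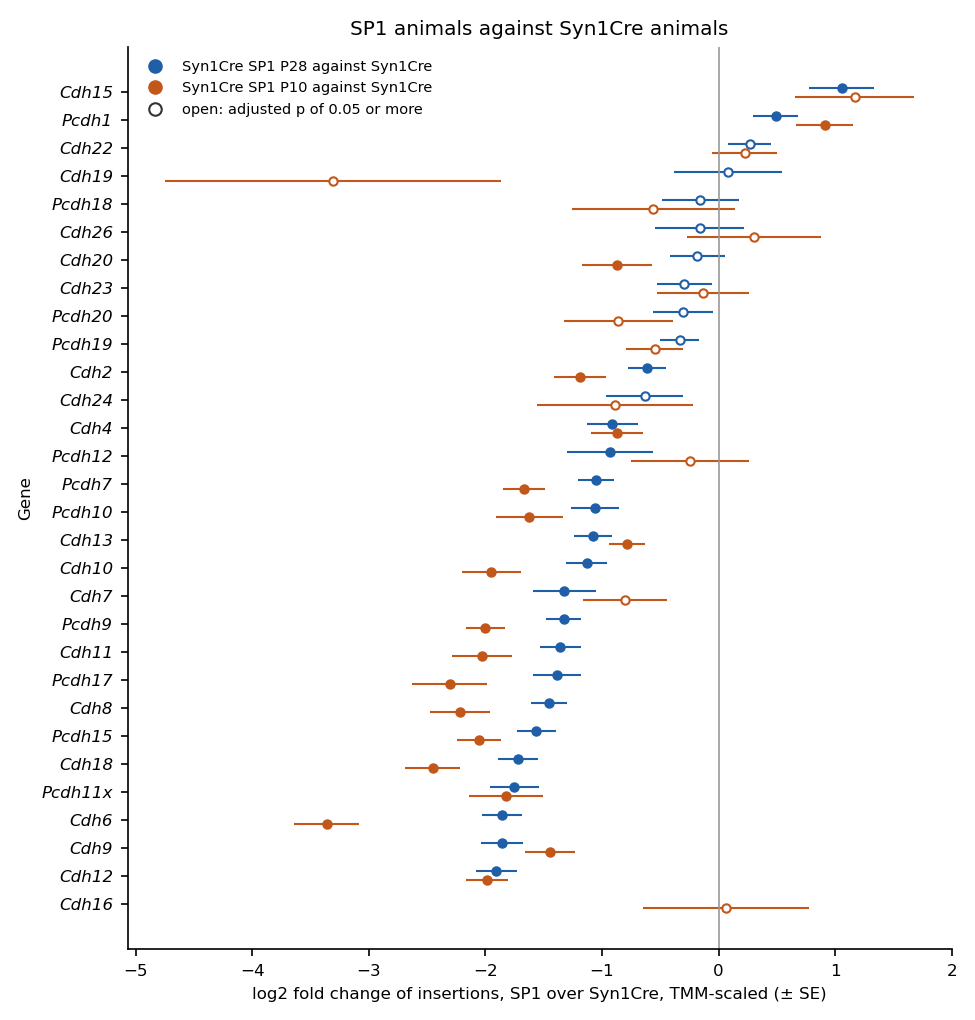
Log2 fold change with its SE (TMM-scaled) of the SP1 groups at P28 and P10 over Syn1Cre for the members tested. Most members lie below 0. Cdh6 lies lowest at P10 (-3.36, on 13 insertions in the P10 group), and Pcdh1 lies above 0 at both ages.

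At the gene starts the SP1 groups differed in the other direction for some members. A start window is 2.5 kb on each side of the listed start, and both ends of the gene span where no start is listed, as for 13 members. Among the members named for their windows, these are Cdh2, Cdh11, Cdh19, Pcdh1 and Pcdh12, whose windows thus also cover the far end of the gene. In the window of Pcdh7, a delta-1 protocadherin whose cytoplasmic tail binds a protein phosphatase, the Syn1Cre animals had 38.5, 16.7, 23.5, 26.4, 27.1 and 28.1 IPM. The P28 animals had 116, 138, 146 and 97.0 and the P10 animals 161, 111 and 157. Every SP1 animal lay far above every Syn1Cre animal, while the whole Pcdh7 locus was lower. In the Pcdh19 window the Syn1Cre animals lay between 35.2 and 54.9, the P28 animals at 81.9, 110.1, 79.0 and 84.8 and the P10 animals at 69.1, 100.2 and 83.9, again without overlap. In the Cdh9 window, by contrast, the P28 animals had 12.9, 27.5, 12.2 and 34.6 against 42.9 to 76.1 in Syn1Cre, and all lay below. The P10 animals there, at 23.0, 100.2 and 62.9, lay on both sides.

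The fits of start windows depend on the scaling, since most of the start windows tested held more IPM in the SP1 groups than in Syn1Cre. Over all windows with enough insertions to be tested, the median log2 fold change was 0.015 at P28 with TMM factors and 1.43 when scaled to all insertions, and at P10 it was -0.22 and 1.47. The share of calls that were higher went from 52.3% to 97.3% at P28 and from 46.4% to 95.6% at P10. The low-count filter keeps a window when enough animals of either group pass, so windows high only in the SP1 animals were also tested. The part of this filter in these medians and shares was not tested. With TMM factors, that is relative to other starts, 12 of 15 members passed at P28, 1 higher and 11 lower, against 60.6% of 4801 windows (31.7% higher and 29.0% lower). At P10 14 of 15 passed, 1 higher and 13 lower, against 55.7% of 5142 (29.8% lower). Scaled to all insertions, 5 members passed at P28, 3 higher and 2 lower, and 4 at P10, 3 higher and 1 lower. Of the 3 higher at P10, Pcdh1 entered the fit only through the P10 animals. Of all windows, 3652 of 4801 passed at P28 under that scaling, 3552 higher and 100 lower. At P10 3034 of 5142 did, 2900 higher and 134 lower.

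Pcdh7 was the member that was higher under both scalings, by 0.69 at P28 (SE 0.19, edgeR adjusted p = 0.00289) and 0.72 at P10 (SE 0.28, adjusted p = 0.029) relative to other starts, and by 2.15 and 2.42 relative to all insertions (adjusted p = 7.55e-10 and 2e-08). Pcdh19 was at -0.38 (adjusted p = 0.086) and -0.69 (adjusted p = 0.0397) relative to other starts and at 1.04 (adjusted p = 9.25e-05) and 1.01 (adjusted p = 0.00972) relative to all insertions. Pcdh9 at P28 turned in the same way, from -0.29 (adjusted p = 0.32) to 1.13 (adjusted p = 5.85e-04), and at P10 (these P10 windows of Pcdh19 and Pcdh9 fall outside the naming rule) from -0.98 (adjusted p = 0.04) to 0.72 (adjusted p = 0.216). Pcdh1 at P10, with 40.5 ± 6.45 against 5.72 ± 2.26 IPM, was at 1.00 (adjusted p = 0.0954) and 2.69 (adjusted p = 1.06e-04). The Syn1Cre animals held 2.66 to 9.37 IPM in the Pcdh1 window, so the low-count filter kept it only through the P10 animals, where it was high. That call is therefore a description only. Cdh9 at P28 was lower under both, at -2.70 (SE 0.27, adjusted p = 7.86e-10) and -1.34 (adjusted p = 1.58e-04). So was Cdh12 at P28, at -2.17 (adjusted p = 4.7e-09) and -0.78 (adjusted p = 0.0137). The P10 window of Pcdh15 passed under both as well, but held 1 insertion in the whole group against 110 in Syn1Cre, a ratio of pooled IPM of 0.186 (exact 95% counting interval 0.00467 to 1.06). The listed starts of these last members, Cdh12 and Pcdh15, lie 662.6 and 725.6 kb inside the gene span, and that of Cdh18 487.6 kb, so other starts of theirs are not covered.

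Named by the same fit, Cdh2 (-1.68 at P28 and -2.48 at P10), Cdh8 (-1.56 and -2.24), Cdh11 (-1.86 at P28), Cdh18 (-1.25 at P28), Cdh6 (-1.36 and -3.02), Cdh10 (-0.99 and -2.12) and Pcdh12 (-1.92 and -1.40), an endothelial protocadherin, were below other starts at both ages. For Cdh2, Cdh11 and Pcdh12 the window is both gene ends, and the Pcdh12 locus also holds the genes Dele1 and Rnf14. The P10 windows of Cdh11 and Cdh18 held 2 and 3 insertions, with ratios of pooled IPM to Syn1Cre of 0.273 (exact 95% counting interval 0.0328 to 1.00) and 0.597 (0.121 to 1.79). Those of Cdh2, Cdh6 and Cdh8 held 4 each in the whole P10 group, that of Cdh20 6, of Cdh12 7 and of Pcdh12 8. The sizes of these P10 differences are thus loosely fixed. Pcdh15 at P28 (-2.09), Cdh20 at P28 (-0.89), Cdh12 at P10 (-2.62), Cdh9 at P10 (-1.71) and Cdh20 at P10 (-1.93) were below other starts as well. Scaled to all insertions, none of these passed, and Cdh6 (0.026), Cdh10 (0.42), Cdh18 (0.13) and Cdh20 (0.54) at P28 and Pcdh12 (0.28) at P10 changed sign. For the Cdh10 window this can be read from the animals themselves, since the P28 animals had 134, 138, 158 and 121 IPM against 74.4, 79.9, 86.2, 96.0, 194 and 92.1 in Syn1Cre. The P28 animals lay above 5 of the 6 Syn1Cre animals, and the groups overlapped through Syn1Cre animal 5, the one with the high astrocyte markers.

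**Figure D5:**
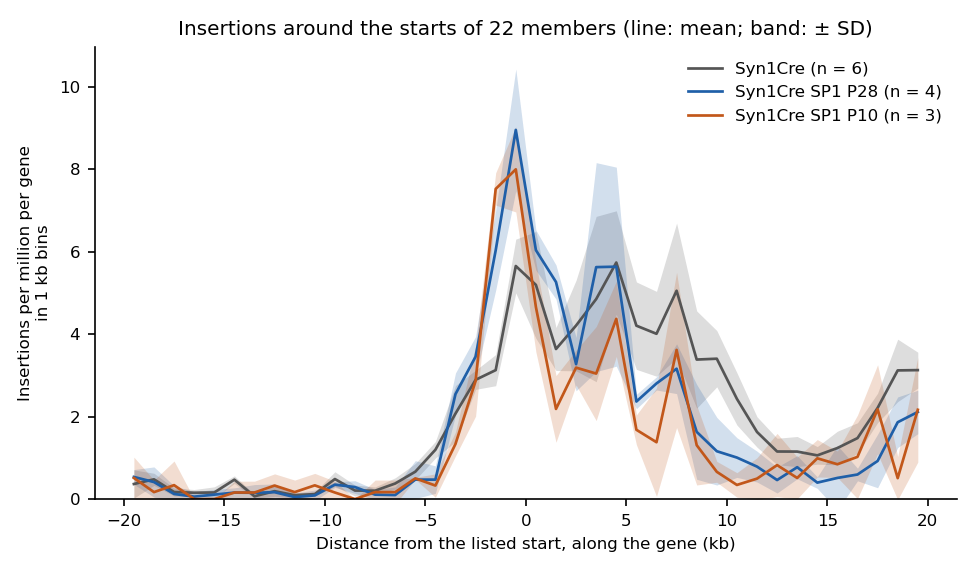
IPM per gene in 1 kb bins from 20 kb before to 20 kb after the listed starts of 22 members, as the mean of animals (line) with its SD (band), for Syn1Cre (n = 6), SP1 at P28 (n = 4) and SP1 at P10 (n = 3). Both SP1 groups lie above Syn1Cre in the 2 kb before the start and below it from 5 to 20 kb after the start; in other bins the order varies.

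The share of a member's own insertions that lay at its start does not depend on the scaling between libraries. Over all members together it was 6.39% ± 0.75 in Syn1Cre (SD, n = 6), 13.6% ± 1.10 in SP1 at P28 (n = 4) and 14.4% ± 0.90 in SP1 at P10 (n = 3). Over all genes it was 15.8%, 31.5% and 35.4%. In the other groups the members stood between 4.71% (Frontflip_GFAPCreNeg, where the 3 shallow tables ranged from 0% to 7.69%) and 8.53% (BrokenHeart). Of 17 members with 10 or more insertions in every animal at P28, 14 had a higher share than Syn1Cre and 11 passed, all higher, against 52.9% of 2768 genes called (exact two-sided permutation test, Benjamini-Hochberg over all genes tested). At an unadjusted p under 0.05, 11 members passed, against 60.1% of genes. The median difference was 4.98 percentage points for members and 7.51 for all genes. At P10, 9 of 12 were higher and 4 passed, against 53.9% of 1564 genes (4 at an unadjusted p under 0.05, against 58.6%), with medians of 3.54 and 7.91 points. These exact tests cannot go below 0.00476 at P28 and 0.0119 at P10, and without any single P10 animal 0 members passed (5 to 9 at an unadjusted p under 0.05). With fewer P10 animals the smallest p these tests can reach is higher still. That 0 therefore cannot show whether the result hangs on single animals.

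Pcdh19 had the largest change at P28, from 38.4% ± 5.57 of its insertions at the start in Syn1Cre to 72.0% ± 10.3, a difference of 33.6 percentage points (exact p = 0.00476, adjusted p = 0.0122). Cdh10 went from 20.2% to 43.5%, Cdh6 from 11.5% to 30.4%, Pcdh7 from 3.12% ± 0.95 to 21.4% ± 4.08, and Pcdh17, a delta-2 protocadherin of presynaptic sites, from 2.45% to 17.5%. Each had the smallest exact p, and in each all P28 animals lay above all Syn1Cre animals. At P10, Pcdh7 reached 35.9% ± 6.51, Cdh10 40.5%, Pcdh1 25.3% against 10.2% in Syn1Cre and Pcdh9 6.57% against 1.51% (exact p = 0.0119, adjusted p = 0.0239 each). For Pcdh1 this is the share at both gene ends. Cdh9 had 45.1% ± 24.6 at P10 against 25.5% ± 3.73, which did not pass (adjusted p = 0.125). At P28, Pcdh15, Cdh2 and Cdh22 had lower shares by -0.51, -1.66 and -3.89 points, none past the threshold. For Cdh6 the start share rose while the number of IPM at the start did not, with 21.6, 64.2, 36.5 and 41.5 in the P28 window against 32.2 to 47.4 in Syn1Cre. The lower count lay in the rest of the locus.

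Set against each other, the SP1 ages differed at 5 of 19 members tested, all higher at P28, against 11.1% of 3458 loci (7.40% higher). The median log2 fold change was 0.62 for members and 0.026 for all loci. Cdh6 was higher by 1.56 (SE 0.35, edgeR adjusted p = 0.00677), with only 13 insertions in the whole P10 group. Cdh10 had 345, 339.6, 273 and 329 IPM at P28 and 265, 189 and 126 at P10, and the groups did not overlap (0.86, SE 0.25, adjusted p = 0.0266). Pcdh9 had 983, 688, 832 and 819 at P28 and at most 602 at P10 (0.72, SE 0.21, adjusted p = 0.0313). Pcdh7 (0.65, SE 0.21, adjusted p = 0.038) did not overlap either, and Pcdh17 (0.98, SE 0.32, adjusted p = 0.0493) did. Cdh2 (0.62, adjusted p = 0.0812), Pcdh15 (0.54, adjusted p = 0.145), Cdh12 (0.14) and Cdh13 (-0.23) did not pass. The number of calls hung on single animals, with 0 in edgeR without P10 animal 3 (8 at an unadjusted p under 0.05) and 9 without P28 animal 4. It was 1 without P10 animal 2 or P28 animal 1, and 2 without P10 animal 1 or P28 animal 3. Scaled to all insertions 1 member passed, against 381 of all 3458 loci, and the share of all calls that were higher went from 66.5% to 44.4%. The summed levels of 12 neuron markers were 3130.1 to 3299 IPM at P28 and 3052 to 3709 at P10, and those of the astrocyte markers 985 to 2193 and 892 to 1136. Their part in these differences was not tested.

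Rbp4Cre animals were lower than Syn1Cre at 3 of 27 members tested, Cdh9, Cdh10 and Pcdh10, against 2.10% of 10690 loci (1.91% lower). The medians were -0.53 for members and -0.31 for all loci. Cdh9 had 140.3, 99.3, 149.8 and 123 IPM, all below the 203 of the lowest Syn1Cre animal (log2 fold change -1.19, SE 0.26, edgeR adjusted p = 0.0115). These levels rest on 8, 5, 6 and 3 insertions. Pcdh10 had 228, 258, 175 and 41.0 against 272 to 600.2, also without overlap (-1.28, SE 0.31, adjusted p = 0.0238). The Rbp4Cre levels of Pcdh10 rest on 13, 13, 7 and 1 insertions. Cdh10 had 140.3, 437, 349 and 246 and overlapped Syn1Cre (-1.04, SE 0.25, adjusted p = 0.0238). Pcdh9 (-0.44), Pcdh15 (-0.45), Pcdh7 (-0.32) and Cdh12 (-0.28) did not pass. Cdh19 was at 0 in all 4 animals, where 1 insertion is 17.5 to 41.0 IPM, against 14.3 to 83.5 IPM in Syn1Cre. These tables are too shallow to tell that 0 from the Syn1Cre level in a single animal. Without Rbp4Cre animal 4, or without Syn1Cre animal 4 or 6, 1 member passed. Scaled to all insertions only Pcdh10 did (-1.02, edgeR adjusted p = 0.0421), against 129 of all 10690 loci. The share of all calls that were higher was 9.33%, against 42.6% under that scaling and 32.9% with DESeq2. Among markers, 1 of 7 astrocyte loci was lower (median -2.37), and of 12 neuron loci 1 was higher and 3 lower; their part in the members' differences was not tested. The tissue and the RNA fraction differed between these groups and cannot be told apart from the Cre line.

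BrokenHeart, read from DNA, was lower than C57bl6J, read from RNA, at 12 of 19 members tested and higher at 0, against 39.9% of 1878 loci (21.1% lower). The medians were -0.78 for members and 0.042 for all loci. Cdh12 had 326, 499 and 282 IPM against 1063 and 1130.5, with no overlap (log2 fold change -1.52, SE 0.17, edgeR adjusted p = 2.14e-08). Pcdh9 had 944, 896 and 518 against 1591 and 1779 (-1.10, SE 0.15, adjusted p = 4.21e-07). Pcdh15 had 429, 458 and 282 against 743 and 763 (-0.94, SE 0.17, adjusted p = 4.33e-05). All BrokenHeart animals were the lower ones at these loci. Pcdh10 (-1.20), Cdh8 (-1.07), Pcdh17 (-0.90), Cdh18 (-0.89), Pcdh7 (-0.88), Cdh10 (-0.82), Cdh9 (-0.68), Pcdh11x (-0.66) and Cdh2 (-0.51) also passed, with overlap at Pcdh17. Cdh20 (-0.01, 239 ± 45.2 against 237 ± 6.21), Cdh13 (-0.02), Cdh6 (-0.27) and Cdh4 (-0.48, adjusted p = 0.11) did not, and the first 2 turned to 0.054 and 0.040 when scaled to all insertions. The transposon and the way of reading it differed between these groups and cannot be told apart, and C57bl6J had 2 animals. Neuron markers were lower at 3 and higher at 1 of 7 loci tested, and 1 of 3 astrocyte markers was higher. Summed levels in BrokenHeart and C57bl6J were 540 to 892 and 483 to 520 IPM for the astrocyte markers, 141 to 172 and 81.9 to 84.7 for endothelial markers and 112 to 137 and 59.4 to 60.8 for microglia markers. Their part in the members' differences was not tested.

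Genes that work with cadherins were set beside the members in fixed lists. The catenins and linkers tie classical cadherins to actin. With Syn1Cre over Syn1CreNeg, 5 of 10 tested passed, against 31.0% of all loci, Pkp4 (0.49) and Afdn (0.52) higher and Vcl (vinculin, -1.06), Ctnnd1 (p120 catenin, -0.88) and Ctnnd2 (-0.56) lower. With GFAPCre over GFAPCreNeg, 3 of 10 passed, all lower, against 5.88% of all loci lower, and these were Vcl (-0.86), Ctnnd1 (-0.48) and Ctnnd2 (-0.32). In SP1 at P28 6 of 11 were lower, against 25.3% of all loci, led by Afdn (-1.57), the alpha-catenin genes Ctnna2 (-1.47) and Ctnna3 (-1.39) and Pkp4 (-0.90), and Vcl was higher (0.76). At P10 6 of 11 were lower, against 21.2%, among them Ctnna2 (-1.89) and Ctnna3 (-1.83). In BrokenHeart 3 of 7 were lower, against 21.1%, Ctnna1 (-0.71), Ctnna2 (-0.66) and Pkp4 (-0.85). Their medians were -0.64 at P28, -0.84 at P10 and -0.20 in BrokenHeart.

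Of the 7 WAVE complex genes tested, Abi1 was lower in both Cre lines (-1.17 with Syn1Cre and -1.01 with GFAPCre) and 3 were lower in SP1 at P28, Abi2 (-1.03), Nckap1 (-1.07) and Wasf1 (-0.50). At P10 4 were lower, Abi2 (-1.58), Nckap1 (-1.57), Wasf1 (-1.31) and Abi1 (-0.98). In BrokenHeart 1 of 4 was lower, Abi2 (-1.02). The shares of all loci lower were 17.5%, 5.88%, 25.3%, 21.2% and 21.1% in these comparisons, in the same order. Among the other cadherin superfamily genes, Celsr3 and Celsr2, seven-pass cadherins of planar polarity, were higher in the SP1 groups, at 2.02 and 1.31 at P28 and 2.37 and 1.23 at P10. Fat3 (-1.04 and -2.06), Fat4 (-0.98 and -1.11) and Clstn2, a synaptic calsyntenin (-1.46 and -1.80), were lower at both ages, and Dchs1 (0.63) was higher at P28 and Clstn1 (-0.81) lower at P10. With 11 tested, that is 3 higher and 3 lower at P28 and 2 higher and 4 lower at P10, against 26.2% and 25.3% of all loci at P28 and 19.6% and 21.2% at P10. In the Cre comparisons Dchs2 (0.69) was higher with Syn1Cre and Celsr1 (0.85) with GFAPCre, 1 of 8 each, against 13.5% and 2.23% of all loci higher. Fat1 (1.26) was higher in BrokenHeart, 1 of 4, against 18.7% of all loci. From P10 to P28, Ctnnd2 (0.86), Abi1 (1.42) and Fat3 (1.07) were higher, against 7.40% of all loci. They were 1 of 7 catenins and linkers, 1 of 4 WAVE complex genes and 1 of 3 other superfamily genes tested. Between Syn1Cre and GFAPCre edgeR called 0 of 27 genes of these lists (1 at an unadjusted p under 0.05), and between Rbp4Cre and Syn1Cre 0 of 27 (7 at an unadjusted p under 0.05), with 0 called by DESeq2 in both. The shares of all loci called by edgeR were 2.15% and 2.10%.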

How the data were processed

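Transposon insertions were read in 46 mice and 1 cell line table, whose deposited tables list 1 insertion per line with its chromosome, position, read count and strand. Per the submitters' processing notes the authors' tools were Novoalign and Bowtie2 and the build mm10 (GRCm38), with roles and versions not given in the sources used here. The tables' read counts were made by the authors, and only the number of lines was tested. BrokenHeart positions were shifted by -1 base. At that shift 56.0% to 58.2% of them fell on positions of the C57bl6J animals or Syn1Cre animal 1, against at most 0.456% at other shifts of up to 3 bases. Lines were counted per protein-coding gene body with 10 kb flanks on chromosomes 1 to 19 and X, and per window of 2.5 kb around starts from RefSeq.

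All loci were fitted with edgeR 4.0.16 in R 4.3.3 (quasi-likelihood test, filterByExpr, TMM factors, library size as all insertions on those chromosomes), with Benjamini-Hochberg adjustment over all loci and a threshold of 0.05. Only the groups compared entered each model. The SE is the log2 fold change over the root of F. Levels (IPM) are insertions per 1000000 of all insertions in a table, and means are given with the SD. Start shares were tested with an exact permutation test over animals, adjusted over all genes tested; the adjustment had been planned over the members. DESeq2 1.42.0 was an alternative. At most 15.1% of the lines of 2 replicates were identical, and no animals were merged. Each comparison names the members past the threshold, the 12 with the smallest adjusted p where more passed, and 4 others with the most insertions; the first 3 are given per animal. Pathway genes past the threshold are named, up to 6 per list. The members and lists were chosen with earlier results of these data known. Scripts were tested on simulated data. Frontflip groups and N2a entered no test. Where animals share a litter or culture is not stated, so p-values measure the spread between these animals.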

Additional observations from a re-analysis of the deposited data

Results flagged for a closer look

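The Cre effect at Cdh9 differed between the lines, by 1.02 on the log2 scale (Syn1 minus GFAP, edgeR adjusted p = 0.00517 in the fit of all 4 groups). Syn1Cre animals had 245 ± 23.4 insertions per 1000000 insertions of their tables (IPM) and Syn1CreNeg 98.2 ± 28.1 (SD, n = 6 each).

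In the N2a table, which the comparisons did not use, 6 members lay above both C57bl6J animals beyond the 95% Poisson interval of counting. These were Cdh22 at 169.8 IPM, Pcdh1 at 89.3, Cdh17 at 53.3, Cdh3 at 45.9, Cdh15 at 32.2 and Cdh1 at 31.0. Most members went the other way, 24 below both animals, with 5 neither above nor below. The share of all loci above or below by this rule was not taken, so these counts are not read as a result about the members. Pcdh18, among the 24, had 0 insertions, for which the interval reaches 4.57 IPM and a floor of 3 insertions 3.72. The table pools 3 experiments, so no spread between them can be given.

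Of 143 sets of 4 to 6 animals looked at (levels of named members at loci and start windows, and sums of marker lists), 12 had an animal apart from the others by Dixon's test; chance gives about 1 in 20. Syn1Cre animal 5 was the highest in 5 of them, with 1986 IPM for the astrocyte markers (next 831), 83.5 at the Cdh19 locus (next 29.3), and 72.2, 51.9 and 194 at the start windows of Cdh19, Cdh20 and Cdh10 (next 20.5, 27.8 and 96.0). GFAPCreNeg animal 6 stood apart in 3, highest for the astrocyte markers at 3009 (next 1755) and lowest at the loci of Pcdh15 at 288 (next 557) and Cdh18 at 183 (next 323). The others were Pcdh7 in Rbp4Cre animal 3 at 973 (next 795), the Pcdh9 start window in Syn1Cre animal 3 at 28 (next 22.7), and in Syn1CreNeg the endothelial markers of animal 3 at 67.2 (next 41.0) and the microglia markers of animal 2 at 154 (next 104).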

How the results depend on the processing

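Of the counts of members past the threshold, 176 stayed within 1.5 times the reported count under an alternative and 51 did not. Scaled to all insertions without TMM factors, the counts were 1 for Rbp4Cre, 2 for Syn1Cre against GFAPCre, 1 for P28 against P10, and 5 (P28) and 4 (P10) for the start windows. At distinct positions they were 0 for Syn1Cre against GFAPCre, 3 for P28 against P10, and 5 (P28) and 8 (P10) for the start windows. With at least 2 reads per insertion the P10 start windows gave 8. With no low-count filter, Rbp4Cre gave 12 and P28 against P10 gave 2. Gene bodies without flanks gave 1 for Rbp4Cre and 2 for P28 against P10. Start windows of 1 kb gave 7 (P28), 6 (P10) and, for start shares at P28, 6. Thinned to the shallowest animal, Rbp4Cre gave 0 and the P28 start windows 1, while no member was left to test in the P10 start windows. DESeq2 gave 1 for P28 against P10. Syn1Cre animals 1 to 3 alone gave 10 against GFAPCre, and GFAPCre against GFAPCreNeg gave 0 in the animals of shared pools with pools as blocks. The shares of all loci called were not set beside these counts.

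With each animal left out in turn the counts ran from 8 to 13 (BrokenHeart), 4 to 6 (GFAPCre against GFAPCreNeg), 1 to 3 (Rbp4Cre), 0 to 3 (Syn1Cre against GFAPCre), 10 to 14 (Syn1Cre against Syn1CreNeg), 18 to 20 (P28), 17 to 20 (P10), 0 to 9 (P28 against P10), 1 to 3 (difference of Cre effects), 11 to 14 and 12 to 16 (start windows at P28 and P10), and 10 to 11 and 0 to 4 (start shares at P28 and P10). For the difference of Cre effects, 3 members passed without Syn1Cre animal 5 or GFAPCreNeg animal 6, and 2 without GFAPCre animal 2 or 6, Syn1Cre animal 4, or Syn1CreNeg animal 2 or 3.

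Same-numbered animals deviated with correlations of -0.221 to 0.171. These correlations do not show a pairing, but with so few animals per group they cannot exclude a shared litter or day. With the replicate block the counts were 9 for P28 against P10, 9 for BrokenHeart, 4 for GFAPCre against GFAPCreNeg, 2 for Rbp4Cre, 11 for Syn1Cre against Syn1CreNeg, 1 for Syn1Cre against GFAPCre, 18 for P28 and for P10, and 12 and 13 for their start windows.

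Among single members, 39 values changed sign, 204 lost the threshold, 36 passed it and 22 moved in other ways, against 2252 that did none of these. The sign changes scaled to all insertions were Cdh13 (0.040) and Cdh20 (0.054) in BrokenHeart, Pcdh19 (0.003) at P10, and Cdh20 (0.320), Pcdh19 (0.145) and Pcdh20 (0.177) at P28. For start windows they were Pcdh12 (0.282), Pcdh19 (1.008) and Pcdh9 (0.717) at P10 and Cdh6 (0.026), Cdh10 (0.421), Cdh18 (0.134), Cdh20 (0.536), Pcdh19 (1.042), Pcdh9 (1.128) and Cdh19 (0.400) at P28. At distinct positions they were Cdh20 in BrokenHeart (0.049) and at P28 (0.025), Pcdh20 at P28 (0.044), and the P28 start windows of Pcdh19 (0.225) and Pcdh9 (0.015). With at least 2 reads they were Cdh20 in BrokenHeart (0.029) and Pcdh9 in Syn1Cre over Syn1CreNeg (-0.009). Over gene bodies Cdh20 (0.252) and Pcdh20 (0.408) turned at P28 and Cdh12 (-0.092) between ages. Cdh12 turned in thinned Rbp4Cre (0.018), Pcdh15 with Syn1Cre animals 1 to 3 against GFAPCre (-0.026), and in Syn1Cre over Syn1CreNeg Pcdh7 in animals 4 to 6 (0.040) and Cdh13 in animals 1 to 3 (-0.036). With each animal left out in turn, Cdh22 at P10 ran from -0.073 (without P10 animal 2) to 0.402, Cdh20 at P28 from -0.332 to 0.041 (without Syn1Cre animal 5) and Cdh12 between ages from -0.140 (without P28 animal 4) to 0.257. Cdh20 at P28 was 0.027 without P28 animal 4, and Cdh12 between ages -0.021 without P10 animal 2. With the replicate block, Cdh13 (0.017) and Cdh20 (0.077) in BrokenHeart, Cdh20 at P28 (0.064) and Cdh12 between ages (-0.197) turned. None of the values above passed the threshold except, scaled to all insertions, Pcdh19 at the starts of both ages and Pcdh9 at the P28 starts. The cause of these changes was not tested. Depth limits the members with few insertions, and 5 to 16 of the 35 were not tested in a comparison of loci.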
